A study of Mus musculus with 10 samples.

Results

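The immunity-related GTPases (IRG proteins) are interferon-inducible GTP-binding proteins that defend mouse cells against organisms living inside vacuoles. The genes described here are Iigp1, Irgm1, Irgm2, Igtp, Tgtp1, Tgtp2, Ifi47 and Gvin1, which were taken by name from the gene table of every library, 8 of 23337 gene symbols. Their expression was read from RNA sequencing of MEFs, fibroblasts derived from mouse embryos and here immortalised, whose genotype is labelled Slfn2 WT or Slfn2 KO. Slfn2 is a Schlafen-family gene that interferon induces. Cells received either nothing or a type I interferon, mouse interferon-β (IFN-β), for 6 h at a dose of 5000 IU/ml. The WT-labelled groups had 3 libraries each and the KO-labelled groups 2 each. The labels describe the replicates as wells plated from the WT and the KO cells and name no separate derivations of either line, so every p-value below measures the spread between libraries, which may be technical. A difference between the labelled genotypes cannot be told apart from a difference between the cultures.

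IRG proteins fall into 2 kinds by the P-loop, the part of the GTP-binding domain that holds the phosphates. The regulators Irgm1, Irgm2 and Igtp carry a methionine where other GTPases have a lysine (the GMS type), sit on the membranes of the cell's own organelles and hold the effectors inactive there. The effectors Iigp1, Tgtp1, Tgtp2 and Ifi47 carry the lysine (the GKS type) and load onto the vacuole around Toxoplasma gondii or Chlamydia trachomatis, which then breaks up. Gvin1 is a far larger interferon-inducible GTPase. Interferon-γ is the classical inducer, and type I interferons induce the family as well.

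The coding sequence of the P-loop is shown because it is what divides the family. A script found it by its pattern in the coding sequences of GENCODE M21 (build GRCm38), and the capitals mark the codon for methionine (ATG) or lysine (AAG). The 8 codons shown start at codon 83 in Irgm1 and Irgm2, 91 in Igtp, 63 in Tgtp1 and Tgtp2, 81 in Ifi47 and 1495 in Gvin1.
Irgm1: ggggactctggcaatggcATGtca
Irgm2: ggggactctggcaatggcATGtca
Igtp: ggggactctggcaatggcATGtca
Tgtp1: ggggaaacaggcgcagggAAGtcc
Tgtp2: ggggaaacaggcgcagggAAGtcc
Ifi47: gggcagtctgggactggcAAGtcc
Gvin1: ggcctgcagagctcagggAAGtct
The P-loop sequence of Iigp1 is not reported here. The 3 regulators were identical over these bases. Over whole coding sequences the regulators shared 62.4% to 65.6% of aligned bases with each other, whereas Tgtp1 and Tgtp2 shared 99.7% and differed at 4 of 1245 bases. Ifi47 shared 47.6% to 53.5% with the 5 other chromosome 11 members.

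The genes sit in few places (GRCm38, GENCODE M21). On chromosome 11, Irgm1 (chr11:48861968-48871683, minus strand), Tgtp1 (chr11:48985327-48994172, minus), Tgtp2 (chr11:49057194-49064206, minus) and Ifi47 (chr11:49076587-49096974, plus) form a first cluster. Igtp (chr11:58199556-58207591, plus) and Irgm2 (chr11:58199618-58222782, plus) overlap each other farther along. Iigp1 lies at chr18:60376027-60392634 on the plus strand and Gvin1 at chr7:106156556-106215326 on the minus strand.

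Each library held 13565815 to 16329729 reads counted to genes. Slfn2 itself, the labelled target, had 18.7, 17.4 and 15.5 normalised reads in the untreated WT-labelled libraries and 46.1 and 34.9 in the untreated KO-labelled ones, a difference that goes against the label but did not pass the test (adjusted p = 0.0908, limma). With IFN-β it had 527, 449 and 573 normalised reads in WT-labelled and 75.0 and 171 in KO-labelled libraries, and there it was lower in KO-labelled cells (log2 difference −2.17 ± 0.36 SE, adjusted p = 0.00816, limma). For this reason the genotypes are called WT-labelled and KO-labelled throughout. All 9 fibroblast markers had reads, and their sum ran from 212824 to 312606 normalised reads in untreated WT-labelled libraries, 213613 to 305645 in treated WT-labelled ones, 302014 to 479077 in untreated KO-labelled ones and 349622 to 477360 in treated KO-labelled ones. Of 7 macrophage markers in the table, Tyrobp and Fcgr1 had no read, and the summed level was 53.0 to 97.0 normalised reads per library, nearly all of it from Cd68 and Csf1r. Markers of T cells summed to at most 0.968 normalised reads, of B cells to at most 2.20, of epithelium to at most 5.16 and of endothelium to at most 20.2.

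IFN-β raised 7 of the 8 genes in both labelled genotypes, and Gvin1 had no read in any library. Irgm1 was well above the floor of detection before treatment, and the other genes were low. The 7 genes with reads together took 0.00292% to 0.00363% of the reads in untreated WT-labelled libraries and 0.180% to 0.249% in treated ones. In KO-labelled libraries the share went from 0.00158% to 0.00297% untreated up to 0.162% to 0.279% treated. In bulk RNA more responding cells and more RNA per cell cannot be told apart. Each value below is a normalised read count, the authors' count per gene after scaling for library depth.

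**Figure D1:**
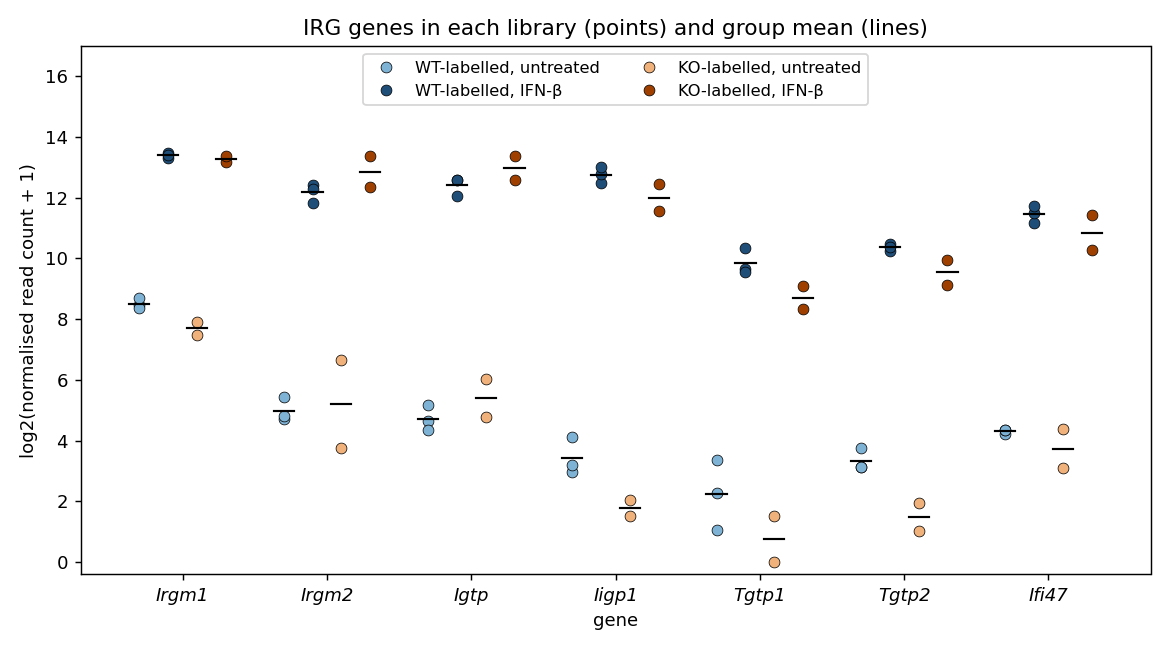
Each point is 1 library and each short line the mean of its group, on the y axis as log2 of the normalised read count plus 1, for the 7 IRG genes with reads on the x axis. Every treated library of a gene lies above every untreated one of the same genotype, and Irgm1 starts from the highest untreated level, with 178 to 412 normalised reads.

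The regulators come first. Irgm1, which in mice is needed for resistance to several intracellular pathogens and for the survival of lymphocytes during infection, had 350.3, 330.2 and 412 normalised reads in the untreated WT-labelled libraries and 10125, 11460 and 10890 after IFN-β. In KO-labelled cells it had 178 and 240.3 untreated and 9294 and 10557 after IFN-β. Its treated libraries were close to each other in both genotypes. Irgm2, which restrains effectors at the Golgi, had 25.3, 42.6 and 26.8 normalised reads in untreated WT-labelled libraries and 3608, 5541 and 5053 after IFN-β. In KO-labelled cells Irgm2 stood at 12.6 and 99.9 before and at 5175 and 10533 after treatment. The untreated KO-labelled libraries lay on either side of all the WT-labelled ones, and library 2 was the higher of the KO-labelled libraries in both treatments. Igtp, a regulator of the endoplasmic reticulum and lipid droplets, had 24.2, 34.9 and 19.6 normalised reads in untreated WT-labelled libraries and 4270, 6124 and 6134 treated. In KO-labelled cells it had 26.2 and 65.0 untreated and 6075 and 10600.0 treated, again with library 2 the higher.

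Of the effectors, Iigp1, the one studied most closely on the Toxoplasma vacuole, had 16.5, 6.78 and 8.26 normalised reads in untreated WT-labelled libraries and 5720, 7084 and 8233 after IFN-β. Its KO-labelled libraries had 3.15 and 1.88 untreated and 2994 and 5612 treated. In each treatment both KO-labelled libraries were below the lowest WT-labelled library. Tgtp2 had 7.69, 7.75 and 12.4 normalised reads in untreated WT-labelled libraries and 1409, 1211 and 1335 after IFN-β, against 1.05 and 2.83 untreated and 555 and 994 treated in KO-labelled cells. Tgtp1, its near-identical copy, had 1.10, 3.87 and 9.29 untreated and 812, 757 and 1306 treated in WT-labelled cells, against 0 and 1.88 untreated and 324 and 540.4 treated in KO-labelled cells. For both Tgtp genes the treated KO-labelled libraries were below every treated WT-labelled one. The untreated KO-labelled values lay at or below the floor of 3 reads, which equals 2.73 to 3.29 normalised reads. Untreated WT-labelled libraries held 7, 8 and 12 reads of Tgtp2 and 1, 4 and 9 reads of Tgtp1. Ifi47, the remaining effector, had 17.6, 19.4 and 19.6 normalised reads in untreated WT-labelled libraries and 2315, 2858 and 3404 after IFN-β. In KO-labelled cells Ifi47 had 19.9 and 7.54 untreated and 1230 and 2732 treated, so that the genotypes overlapped in both treatments.

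Gvin1 was listed at 0 in all 10 libraries, treated ones included. A count of 0 allows up to 3 reads per library. The sequence of Gvin1 is almost wholly repeated in other genes: of the stretches of 50 bases in its transcripts, 99.2% also occur in another gene, 98.3% in Gm4070. Gm4070 was also listed at 0 in every library. How the authors treated reads that match several genes is not given in the sources used here, so the 0 applies to counted reads and its bearing on expression was not tested.

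The first comparison asked which members responded to IFN-β in each labelled genotype. Of the 8 members, 7 passed the filter on low counts, and each of these 7 rose in WT-labelled cells, where 2.21% of all genes tested rose (limma-trend with Benjamini-Hochberg adjustment, threshold 0.05). Each also rose in KO-labelled cells, where 1.83% of genes tested rose. For each of them every treated library exceeded every untreated one, a separation that 7.48% of genes tested showed in WT-labelled and 10.7% in KO-labelled cells. Iigp1, Tgtp1 and Tgtp2 passed the filter only through the treated libraries, so their place in these counts follows from their being high there. Irgm1, Irgm2, Igtp and Ifi47 would have passed it on the untreated libraries alone. Iigp1 had the highest fold change of the family, 643-fold in WT-labelled cells (log2 9.33 ± 0.36 SE, adjusted p = 3.2e-06), and 10.21 ± 0.44 on the log2 scale in KO-labelled cells (adjusted p = 6.5e-06). Irgm1 had the lowest, 29.7-fold (log2 4.89 ± 0.15, adjusted p = 6.5e-07) and 47.6-fold (5.57 ± 0.19, adjusted p = 1.3e-06).

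**Figure D2:**
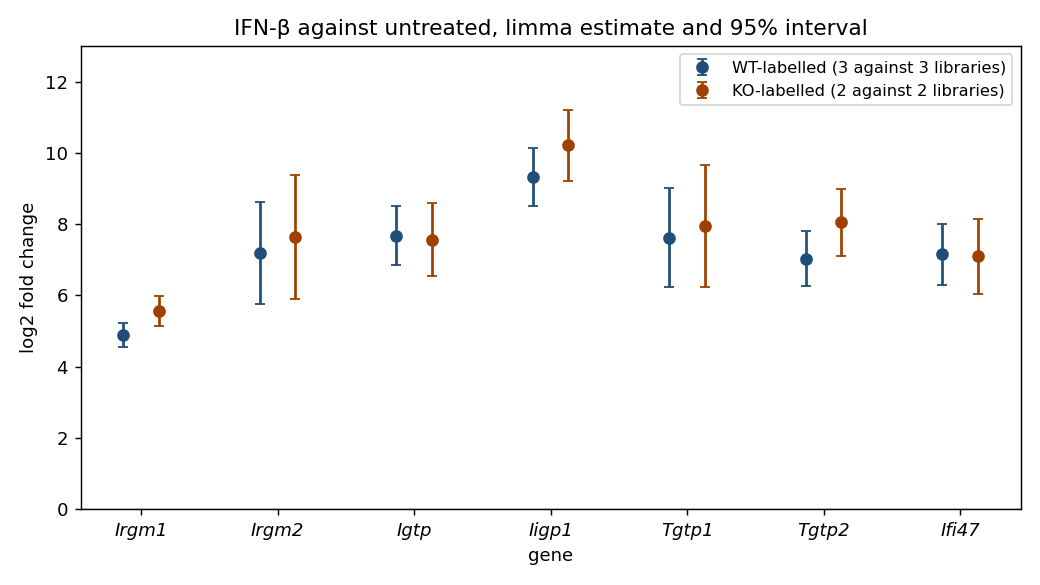
Points are limma estimates of the log2 fold change with IFN-β (y axis) and bars their 95% intervals, for the 7 tested genes (x axis) in WT-labelled and KO-labelled cells. Irgm1 is lowest at 4.89 and 5.57, Iigp1 highest at 9.33 and 10.21, and the intervals of the genotypes overlap for every gene.

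The other 5 genes lay close together in WT-labelled cells. Their log2 fold changes were 7.68 ± 0.37 (SE) for Igtp, 7.62 ± 0.61 for Tgtp1, 7.20 ± 0.63 for Irgm2, 7.15 ± 0.38 for Ifi47 and 7.03 ± 0.34 for Tgtp2. Their 95% intervals overlapped, and the highest adjusted p among them was 0.00019 (Irgm2). In KO-labelled cells the values were 8.05 ± 0.42 for Tgtp2, 7.95 ± 0.75 for Tgtp1, 7.64 ± 0.77 for Irgm2, 7.56 ± 0.45 for Igtp and 7.10 ± 0.47 for Ifi47, again with overlapping intervals and a highest adjusted p of 0.0006 (Irgm2). The size of these folds depends on which untreated library is kept. Without untreated KO-labelled library 1 or 2, the value was 6.19 or 9.09 for Irgm2, 6.93 or 8.20 for Igtp, 7.18 or 8.71 for Tgtp1 and 7.75 or 6.45 for Ifi47. In WT-labelled cells Tgtp1 had 7.04 without untreated library 1, and no other member moved as far (1.5 times). Few untreated reads limit the folds of 3 effectors in KO-labelled cells. Tgtp1 had 2 untreated reads over both libraries against 900 treated, a ratio of levels of 444 with a 95% counting interval of 122 to 3669. Tgtp2 had 4 against 1617, a ratio of 398 (155 to 1464), and Iigp1 5 against 8993, a ratio of 1773 (759 to 5462).

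Levels between members can be compared only per length, here as mean normalised reads per kb of annotated exon. In untreated WT-labelled cells Irgm1 stood apart at 62.7 ± 7.3 (SD, n = 3) reads per kb, with every library above those of the next gene. Igtp followed at 12.96 ± 3.9, Irgm2 at 8.55 ± 2.6 and Ifi47 at 7.62 ± 0.45, each overlapping its neighbour in that order. Below them came Tgtp2 at 3.16 ± 0.92, Iigp1 at 1.80 ± 0.90 and Tgtp1 at 1.48 ± 1.3, which overlapped. With IFN-β the order changed: Igtp had the highest level, 2725 ± 531 reads per kb, ahead of Irgm1 at 1863 ± 115, and their libraries did not overlap. Irgm2 (1283 ± 272), Iigp1 (1204 ± 216) and Ifi47 (1156 ± 220.1) overlapped as a middle set. Tgtp2 (449 ± 34.1) and Tgtp1 (299 ± 94.3) came last.

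In KO-labelled cells the order was similar. Untreated, Irgm1 had 36.0 ± 7.5 (SD, n = 2) reads per kb, Igtp 22.6 ± 13.6, Irgm2 15.2 ± 16.7 and Ifi47 5.55 ± 3.5, all overlapping in turn, and Tgtp2, Iigp1 and Tgtp1 were at or below 0.659. With IFN-β, Igtp led at 4123 ± 1583, then came Irgm2 at 2128 ± 1027 and Irgm1 at 1708 ± 154, which overlapped. Ifi47 (801 ± 429) and Iigp1 (739 ± 318) overlapped, and Tgtp2 (264 ± 106) and Tgtp1 (135 ± 47.7) were again lowest. The places of several members depend on the length used. The annotated exons of Irgm1 cover 5.81 kb, of which the transcript with the longest coding part spans 2.259 kb. Each gene was also divided by the length of its own such transcript, a choice made after seeing the data. By that length Irgm1 had 4792 ± 297 reads per kb in treated WT-labelled cells, above Igtp in every library. In treated KO-labelled cells Irgm1 had 4394 ± 396, overlapping Igtp. Iigp1 then had 2247 ± 403 in treated WT-labelled cells, with a mean above those of Ifi47 (1613 ± 307) and Irgm2 (1342 ± 285), each overlapping the next, and in untreated WT-labelled cells the mean of Ifi47 (10.6 ± 0.63) was above that of Irgm2 (8.95 ± 2.7), which it overlapped. By either length Irgm1 had the highest mean in untreated cells, overlapping Igtp in KO-labelled cells by exon length, and the Tgtp genes came last in treated ones.

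The next comparison asked whether the labelled genotypes differed before treatment. Tgtp2, Iigp1 and Irgm1 were lower in untreated KO-labelled cells, 3 of the 8 members, where 3.23% of all genes tested were lower and 6.23% differed in either direction. Tgtp2 was 3.59-fold lower (log2 difference −1.84 ± 0.38 SE, adjusted p = 0.0225, limma), Iigp1 3.12-fold lower (−1.64 ± 0.40, adjusted p = 0.0456) and Irgm1 1.75-fold lower (−0.81 ± 0.17, adjusted p = 0.0247). For these 3 genes both KO-labelled libraries lay below all 3 WT-labelled ones, a separation that 15.9% of genes tested showed in that direction. The values of Tgtp2 and Iigp1 rest on 4 and 5 reads in the KO-labelled libraries against 27 and 30 in the WT-labelled ones. Irgm1 rests on 425 against 1059.

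The remaining 4 tested genes did not pass in untreated cells. The log2 difference was −1.47 for Tgtp1 (95% interval −3.03 to 0.08), −0.57 for Ifi47 (−1.53 to 0.39), 0.22 for Irgm2 (−1.37 to 1.82) and 0.68 for Igtp (−0.25 to 1.61). Over the 7 tested members the median difference was −0.81, beside 0.0034 over all genes tested. The calls were fragile. With edgeR's quasi-likelihood test on the recovered reads only Irgm1 passed (adjusted p = 0.0328; 2.89% of genes tested were lower), and likewise with DESeq2 (adjusted p = 0.0013; 6.2%) and with a pseudocount of 5 (limma, adjusted p = 0.0253). No member passed without WT-labelled untreated library 3, without KO-labelled untreated library 1, or without WT-labelled treated library 2, and Tgtp2 alone passed without WT-labelled treated library 3. Over the 10 fits that each left out 1 library, Tgtp2 passed in 7, Irgm1 in 6 and Iigp1 in 3, all with a lower level in KO-labelled cells.

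**Figure D3:**
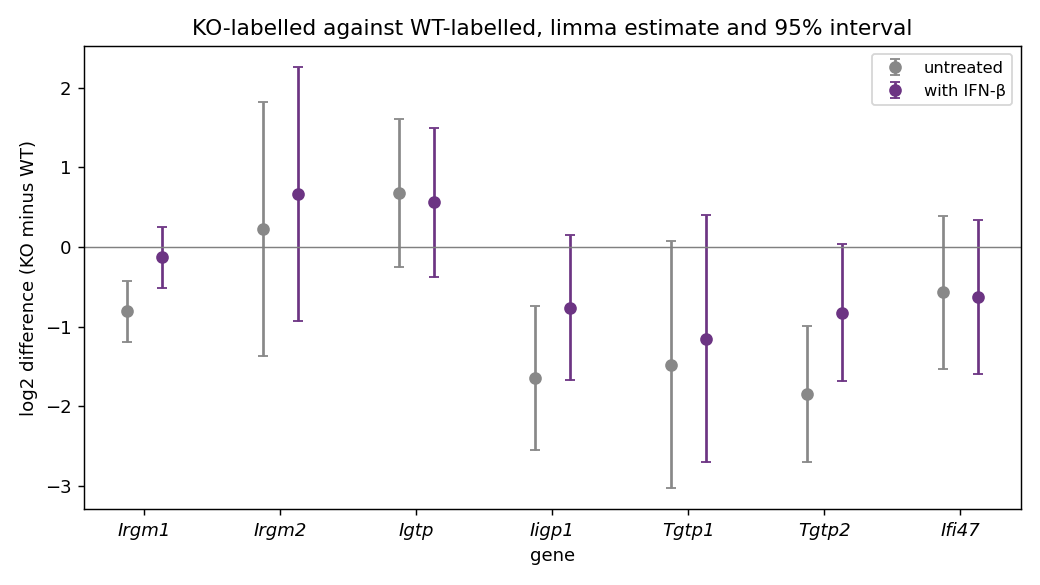
Points are limma estimates of the log2 difference between KO-labelled and WT-labelled cells (y axis, below 0 where KO-labelled cells were lower) and bars their 95% intervals, for 7 genes (x axis) untreated and with IFN-β. The untreated intervals of Irgm1, Iigp1 and Tgtp2 lie below 0, and every interval with IFN-β includes 0.

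With IFN-β no member differed between the labelled genotypes in limma, while 6.55% of all genes tested did. The count was 0 of the 8 members also with the replicate block, with edgeR and with DESeq2. At an unadjusted p under 0.05 it was 0 in limma and with its block, 3 in edgeR and 3 in DESeq2, where 20.95%, 39.2%, 21.02% and 23.3% of all genes tested had such a p. The log2 differences were −1.15 for Tgtp1 (95% interval −2.70 to 0.40), −0.82 for Tgtp2 (−1.68 to 0.03), −0.76 for Iigp1 (−1.67 to 0.15), −0.62 for Ifi47 (−1.59 to 0.34) and −0.13 for Irgm1 (−0.51 to 0.26). Igtp and Irgm2 had 0.56 (−0.37 to 1.49) and 0.66 (−0.93 to 2.26). Treated KO-labelled libraries of Iigp1, Tgtp1 and Tgtp2 lay below all treated WT-labelled ones, as 20.4% of genes tested did. When edgeR was run with the replicate number as a block, a setting chosen after seeing the data, 3 members passed, where 26.7% of genes tested did: Tgtp1 was lower (−0.89, adjusted p = 0.0286), Tgtp2 was lower (−0.80, adjusted p = 0.0323) and Igtp was higher (0.57, adjusted p = 0.0362).

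Whether the response itself differed was tested as the interaction of genotype and treatment. None of the 7 tested members, and none (0%) of the 12313 genes tested, passed in limma, where 36 genes had an unadjusted p under 0.05. The corresponding counts were 0 passing and 151 unadjusted in limma with the block, 0 and 39 in edgeR, and 1 and 39 in DESeq2, the gene passing in DESeq2 not being a member. In limma without the block Irgm1 was the member with an unadjusted p under 0.05, its log2 response being 0.68 ± 0.24 (SE) greater in KO-labelled cells (unadjusted p = 0.0194, adjusted p = 1.0). With the block, Irgm1 (unadjusted p = 0.0046) and Tgtp2 (unadjusted p = 0.0409) were under that value, both with an adjusted p of 1.0 (limma). The treated levels of Irgm1 overlapped between the genotypes and its untreated levels did not. For the other 6 members the difference of responses was 1.02 ± 0.54 for Tgtp2, 0.88 ± 0.57 for Iigp1, 0.44 ± 1.0 for Irgm2, 0.33 ± 0.97 for Tgtp1, −0.12 ± 0.58 for Igtp and −0.05 ± 0.60 for Ifi47.

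Library number moved with several members. Libraries that carry the same number deviated together over all genes, so the number marks something shared, which the labels do not name. In treated KO-labelled cells library 2 was higher than library 1 for all 7 genes, from 1.14-fold for Irgm1 to 2.22-fold for Ifi47. Slfn2, which is not a member, was 2.28-fold higher there as well. The share of all genes higher in library 2 was not taken, so this count is not shown to be particular to the family. In untreated KO-labelled cells Irgm2 was 7.94-fold and Igtp 2.48-fold higher in library 2, whereas Ifi47 was at 0.378 of library 1. Iigp1, Tgtp1 and Tgtp2 had at most 3 reads in each of these libraries, which shows no direction. Irgm2 and Igtp were higher in library 2 than in library 1 in all 4 groups. The part of the number in the genotype differences was not tested beyond the block, which left the same 3 members lower in untreated KO-labelled cells (limma with block, adjusted p = 0.0055 for Tgtp2, 0.0227 for Iigp1 and 0.0048 for Irgm1), where 13.1% of all genes tested were lower. In edgeR with the same block Tgtp2 (adjusted p = 0.071) and Iigp1 (adjusted p = 0.112) did not pass.

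**Figure D4:**
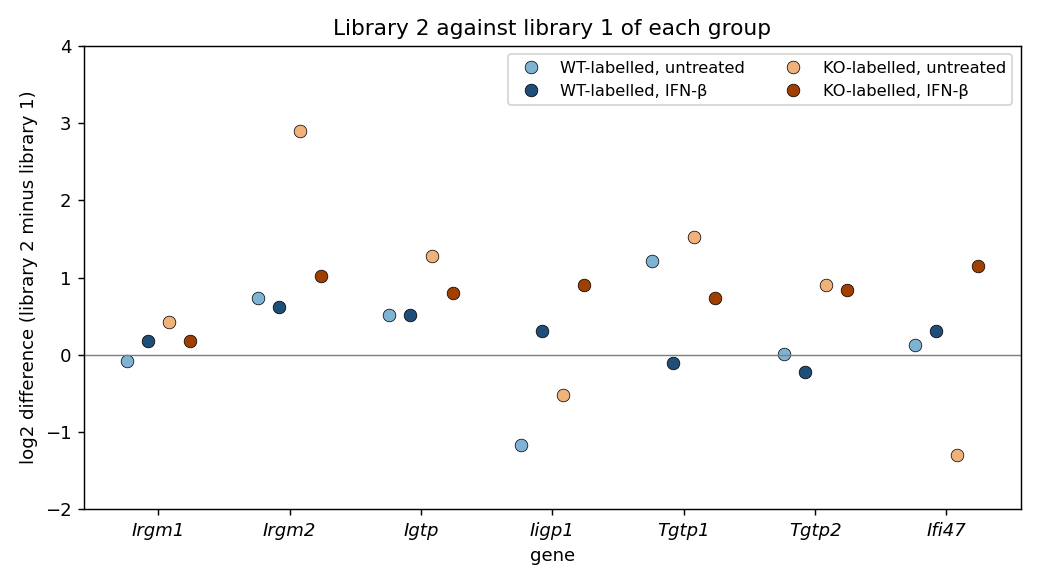
Each point is the log2 difference between library 2 and library 1 of a group (y axis, from normalised read counts plus 1) for 7 genes (x axis) and 4 groups. Irgm2 and Igtp lie above 0 in all 4 groups, the highest being Irgm2 in untreated KO-labelled cells at 2.89, and all treated KO-labelled points lie above 0.

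Some members share sequence, which bears on what a count per gene can tell. Of the stretches of 50 bases in its transcripts, Tgtp1 shared 81.2% with other genes and Tgtp2 86.6%, mostly with each other, so the split of reads between these copies is uncertain. In treated libraries the ratio of Tgtp1 to Tgtp2 reads ran from 0.544 to 0.625 except in WT-labelled library 3, where it was 0.978. Igtp shared 11.8% and Irgm2 7.77%, mostly with each other, and their annotated exons share 162 bases on the same strand. Ifi47 shared 2.54%, with Olfr56. Iigp1 shared 1.69% and Irgm1 0.31%, and neither shared any stretch of 100 bases.

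The stretch of promoter shown next is one that 4 of the 6 chromosome 11 members share upstream of their RefSeq starts. That of Irgm1 is shown for comparison. Promoter windows of RefSeq (GRCm38.p6, 250 bases before to 50 after the start) were searched on both strands for 3 motifs. These were an ISRE-like motif (GAAA, any 2 bases, GAAA), named for the interferon-stimulated response element; a GAS-like motif (TTC, any 3 bases, GAA), named for the interferon-γ-activated site; and a kappaB-like motif (GGGA, any 2 bases, TTCC), named for the site of NF-κB. Of 32851 windows, 3.44% held the first, 8.30% the second, 1.47% the third, and 0.454% both the first and the second. Windows were found for 6 members. Tgtp1, Tgtp2, Igtp and Irgm2 each held an ISRE-like and a GAS-like match, Irgm1 held 2 overlapping ISRE-like matches, and the letters of none of the motifs were in the window of Ifi47. No member's window held the kappaB-like motif. Iigp1 and Gvin1 were not in the table.

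In those 4 members the GAS-like match stood 2 bases before the ISRE-like match. This arrangement, searched after the windows had been seen, was in 5 of the 32851 windows (0.0152%): Tgtp1, Tgtp2, Igtp, Irgm2 and Gm12185, an IRG-like gene next to Tgtp1. Capitals mark the matched motifs, with 10 bases on either side, each on the strand of its gene.
Igtp (chr11:58199501-58199541, plus): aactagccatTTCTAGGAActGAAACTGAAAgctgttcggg
Irgm2 (chr11:58214892-58214932, plus): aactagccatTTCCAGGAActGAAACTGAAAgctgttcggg
Tgtp1 (chr11:48992304-48992344, minus): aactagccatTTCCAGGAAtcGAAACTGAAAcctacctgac
Tgtp2 (chr11:49064263-49064303, minus): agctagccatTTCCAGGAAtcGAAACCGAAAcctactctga
Gm12185 (chr11:48927238-48927278, minus): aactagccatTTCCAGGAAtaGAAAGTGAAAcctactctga
Irgm1 (chr11:48871425-48871460, minus): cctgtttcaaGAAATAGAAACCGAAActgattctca
The matches began 45 bases before the RefSeq start in Igtp, 75 in Irgm2, 88 in Tgtp1 and 81 in Tgtp2. They began 86 bases before it in Gm12185 and 30 in Irgm1. RefSeq and GENCODE starts can differ: the stretches of Irgm2, Tgtp1, Gm12185 and Irgm1 lie inside the GENCODE spans of these genes. A match is a description of letters in the window and not a bound site. Genes with this arrangement are copies of related sequence and are not independent of each other.

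The surroundings of the members were then examined. In the table, 22 other genes had a span within 100 kb of a member, and 15 of them were tested. Of these, 6 rose in WT-labelled cells and 5 in KO-labelled cells, where 2.21% and 1.83% of all genes tested rose. None of the tested neighbours fell, and 5 of them are IRG-like genes themselves. The exons of Gm12185 share 223 bases with Tgtp1 on the same strand. Gm12185 rose by 7.85 ± 0.80 (log2, SE) and 7.39 ± 0.98 in WT-labelled and KO-labelled cells. Gm5431 rose by 6.95 ± 0.45 and 6.49 ± 0.55, and Gm12250, beside Igtp, by 8.10 ± 0.67 and 9.36 ± 0.82. GENCODE M21 lists Gm12250 as a processed pseudogene, and whether it encodes a protein was not tested. Its treated means were 1875 and 1994 normalised reads in WT-labelled and KO-labelled cells, above those of Tgtp1 and Tgtp2. F830016B08Rik, near Iigp1, rose by 6.44 ± 0.46 and 3.72 ± 0.56. Gm5431 and F830016B08Rik had no read in any untreated library, so their values follow the treated level and the 1 added before the log. 9930111J21Rik1 rose by 4.28 ± 0.79 in WT-labelled cells and had 4.38 ± 0.97 in KO-labelled cells, which did not pass (adjusted p = 0.0725, limma; 0.0166 with the block).

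The sixth neighbour that rose was Olfr56, annotated as an olfactory receptor gene, with 5.42 ± 0.47 and 4.19 ± 0.57 on the log2 scale. Its exons share 111 bases with Ifi47 on the same strand, and it reached a mean of 42.9 normalised reads in treated WT-labelled cells against 2859 for Ifi47. The other 9 tested neighbours, among them Trim41 and Trim7 beside Irgm1 and Mrpl22 and Zfp692 on either side of Igtp and Irgm2, had log2 changes between −0.21 and 0.15 in WT-labelled cells and between −0.13 and 0.38 in KO-labelled cells, and none passed.

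**Figure D5:**
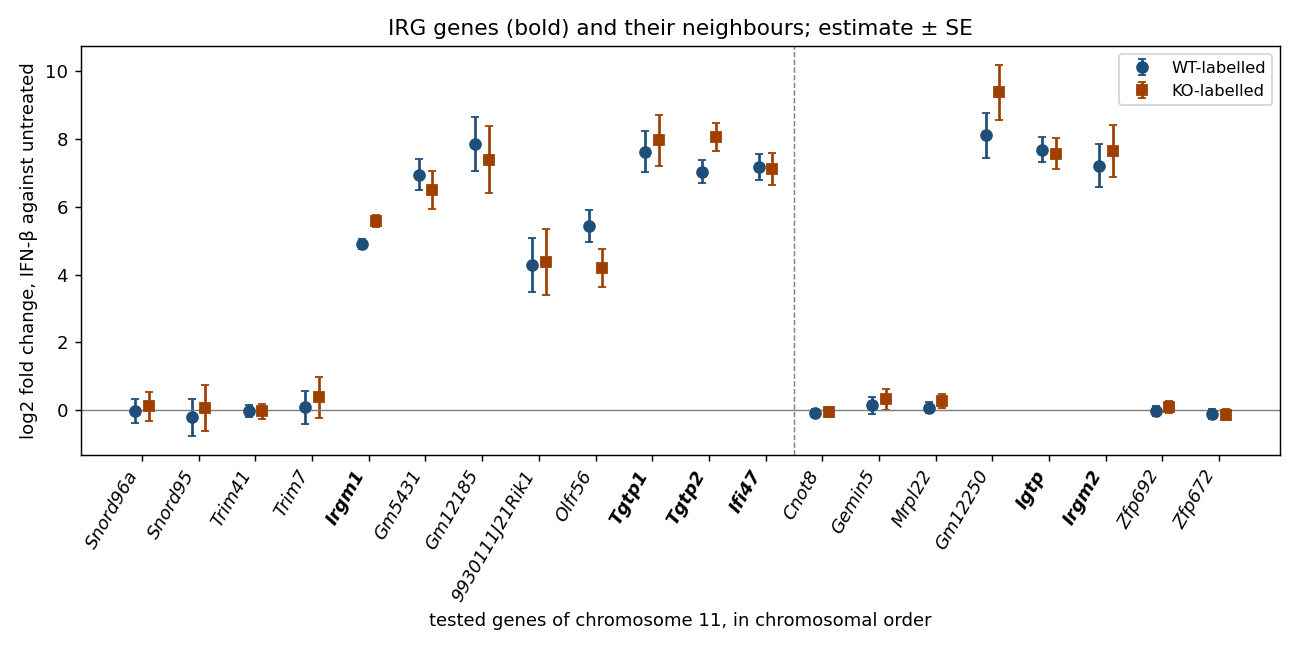
Points are limma log2 fold changes with IFN-β (y axis) and bars ± 1 SE for tested genes of chromosome 11 in chromosomal order (x axis, evenly spaced; the dashed line parts the first cluster from the second), IRG genes in bold. The IRG genes, 4 IRG-like genes and Olfr56 lie between 4.19 and 9.36, and the 9 other neighbours between −0.21 and 0.38.

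Beyond the members, 10 of 12 listed IRG-like genes were in the table and 8 were tested. Of these, 7 rose in WT-labelled cells, where 2.21% of all genes tested rose (median log2 change 7.40, beside −0.03 over all genes tested). In KO-labelled cells 6 rose, where 1.83% of all genes tested rose (median 6.44, beside −0.03). Gm5431, F830016B08Rik, Gm4841 and Gm4951 had at most 3 reads in any untreated library, below the minimum count of 10. They could pass the filter only through the treated libraries, so their place in these counts follows from their being high there. Gm4841 rose most in WT-labelled cells, by 8.97 ± 0.37, and Gm4951 by 8.43 ± 0.63. Untreated WT-labelled libraries held no read of Gm4841, and 3 reads of Gm4951 in library 3 alone. This ranking therefore follows the treated levels and the 1 added before the log more than a measured fold. Irgq, a GTPase-like member that is not known as interferon-inducible, had −0.28 ± 0.20 and −0.42 ± 0.25 and did not pass. With IFN-β, F830016B08Rik (log2 difference −2.72 ± 0.51, adjusted p = 0.0148, limma) and Gm4841 (−2.09 ± 0.41, adjusted p = 0.0189) were lower in KO-labelled cells, and the other 6 did not pass. Of the Gvin-like genes listed, 4 were in the table, 3 of them had no read and none was tested.

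The guanylate-binding proteins, which act with IRG proteins on the same vacuoles, and the Mx proteins gave 11 tested genes. All 11 rose in WT-labelled cells (median log2 change 5.57), where 2.21% of all genes tested rose. Mx1, an inhibitor of influenza viruses, led at 9.91 ± 0.53, and Mx2 had 8.86 ± 0.68. In KO-labelled cells 9 rose (median 6.88), where 1.83% of all genes tested rose. Gbp4 had 2.79 ± 0.98 there (limma, adjusted p = 0.541, and 0.0369 with the block). Gbp11 had no read in any untreated library, so it passed the filter only through the treated ones. Gbp4, Gbp5 and Gbp10 had none in the untreated KO-labelled libraries. With IFN-β, Gbp4 was lower in KO-labelled cells (−5.03 ± 0.89, adjusted p = 0.0114), the only one of the 11 in limma, and with the block 5 were lower. Untreated, none of the 11 passed in limma, with a median difference of −2.16 beside 0.0034 over all genes tested, and with the block 6 were lower in KO-labelled cells. In the block fit 13.1% of all genes tested were lower and 13.5% higher untreated, and 13.3% were lower and 12.7% higher with IFN-β.

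Of the pathway that induces these genes, 14 of 15 listed genes were tested. In each labelled genotype 6 rose, where 2.21% of all genes tested rose in WT-labelled and 1.83% in KO-labelled cells. Under the block 8 rose in each, where 4.68% and 3.37% of all genes tested rose. The median log2 change was 1.31 in WT-labelled and 1.43 in KO-labelled cells. Usp18, a feedback inhibitor at the receptor, rose by 9.94 ± 0.74 and 11.70 ± 0.90. Its untreated means were 7.97 normalised reads in WT-labelled cells and 0.995 in KO-labelled cells, the latter below the floor of 3 reads. Stat2 rose by 4.31 ± 0.42 and 5.26 ± 0.52, and Irf9 by 3.02 ± 0.22 and 3.35 ± 0.27. Both encode parts of the complex that binds the interferon-stimulated response element. Irf1, a factor linked to the induction of IRG and guanylate-binding genes, had 1.78 ± 0.46 and 2.24 ± 0.56 and in limma passed with the block but not without it (adjusted p = 0.00054 and 0.00055, limma with block). Untreated, none of the 14 differed between the labelled genotypes in limma, while with the block 3 were lower and 2 higher in KO-labelled cells. With IFN-β, Ifngr2, a chain of the interferon-γ receptor, was lower (−0.85 ± 0.19, adjusted p = 0.029), and with the block 4 were lower and 3 higher.

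Genes whose products place IRG proteins on vacuoles did not move with the family. None of the 15 listed ATG8-conjugation and autophagy genes passed with IFN-β in either genotype, in limma or with its block, and their log2 changes lay between −0.24 and 0.22 in WT-labelled and between −0.22 and 0.22 in KO-labelled cells. Among 9 tested genes for ubiquitin on vacuoles and IRG partners, Trim21, an antibody receptor and ubiquitin ligase, was the 1 that rose in limma, by 4.73 ± 0.58 and 5.07 ± 0.71. With the block Optn, an autophagy receptor, rose too, by 0.81 ± 0.19 and 0.81 ± 0.23 (adjusted p = 0.0037 and 0.0155, limma with block; SE without it). Tax1bp1, another autophagy receptor, was higher in untreated KO-labelled cells (0.61 ± 0.15, adjusted p = 0.0455, limma).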

How the data were processed

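Gene expression was measured by RNA sequencing of directional total-RNA libraries, per the labels. Per the submitters' processing notes, cutadapt 1.13, STAR 2.5.2a, HTSeq and DESeq2 were used with the mm10 genome; the annotation, strand setting and treatment of reads that match several genes are not given in the sources used here. The deposited values are a signal: reads per gene, which the authors scaled by a factor for each library. Dividing by what 1 read is worth gave whole reads for 100% of values, to within 0.001 reads; at 13565815 to 16329729 reads per library, 3 reads equal 2.73 to 3.29 normalised reads. Counting intervals and floors cover counting error only.

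Groups were taken from the labels. The test, run in R 4.3.3, was limma-trend of limma 3.58.1 on log2(normalised reads + 1), with 4 group means over all 10 libraries, for 12313 genes kept by edgeR's filterByExpr (edgeR 4.0.16, minimum count 10), two-sided, with Benjamini-Hochberg adjustment over all of them and a threshold of 0.05. Every adjusted p is from this fit unless another is named, and folds are on the log2(value + 1) scale, which understates the change of low genes. Alternatives were a replicate block, pseudocounts of 0.5 and 5, no filter, TMM scaling, edgeR, DESeq2 1.42.0 and leaving out each library; edgeR with the block and another gene length were added after seeing the data. Limma with and without the block, edgeR without it and DESeq2 were run on simulated counts. These had the same dispersion for every gene and no effect of replicate number. A pass limit was set there only for IFN-β in WT-labelled cells, so it does not cover the genotype comparisons.

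The libraries are paired by replicate number: same-numbered libraries correlated at 0.48 to 0.87 in their deviations from group means, other libraries at −0.87 to 0.32. In the KO-labelled groups of 2 libraries the deviations are equal and opposite, so a positive value for the same number fixes a negative value for the other. Between the WT-labelled groups of 3 libraries, same-numbered ones had 0.61 to 0.79 and the others −0.54 to 0.0095. The pairing rests on the data, since the labels do not say what a number marks. The members and lists were chosen with earlier results of these data known. Genes named are the 8 members, Slfn2, up to 6 passing genes per list with the largest changes, neighbours within 100 kb that pass, and the 3 genes most alike to each member, except an item that is not reported here; others named (Irgq, Irf1, Optn, Gbp4 in KO-labelled cells and neighbours that did not pass) were chosen after their values were seen.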

Additional observations from a re-analysis of the deposited data

How the results depend on the processing

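The rise of all 7 tested members with IFN-β held its direction and its call in each of the 18 alternatives, in both labelled genotypes. With the replicate block in limma, the pairing by number, no member's call changed, but counts over all genes did, from 272 to 609 (IFN-β, WT-labelled), 227 to 429 (IFN-β, KO-labelled), 767 to 3275 (genotypes, untreated) and 807 to 3203 (genotypes, IFN-β), and in edgeR with the block 619, 425, 3343 and 3285. DESeq2 gave 410, 301, 1513 and 1504, and 1 gene in the interaction. Leaving out each library gave 194 to 291, 132 to 217, 340 to 685 and 285 to 850. The lowest of these were without treated KO-labelled library 2 (132 and 285) and untreated KO-labelled library 2 (340). The count untreated was also 423 without WT-labelled library 3 and 441 without KO-labelled library 1; the count with IFN-β was 520.0, 408 and 398 without WT-labelled libraries 1, 2 and 3 and 329 without KO-labelled library 1. Members lower in untreated KO-labelled cells numbered 3, but 1 with a pseudocount of 5, edgeR, DESeq2 or edgeR with the block, and 0 to 3 when a library was left out. With IFN-β the member count of 0 became 3 in edgeR with the block. Why these counts move was not tested.

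Signs turned only for values that had not passed. Leaving out each library gave an untreated difference of −1.22 to 1.67 for Irgm2 and −1.22 to 0.077 for Ifi47, the values farthest from the rest being those without an untreated KO-labelled library. It gave an interaction of −1.01 to 1.89 for Irgm2, −0.75 to 0.52 for Igtp, −0.44 to 1.09 for Tgtp1 and −0.70 to 0.59 for Ifi47. The interaction of Irgm2 was also −0.11 in edgeR, −0.12 in DESeq2 and −0.062 in edgeR with the block, and that of Tgtp1 −0.49 with a pseudocount of 5. Untreated levels of Tgtp1, Tgtp2 and Iigp1 rest on 2 to 30 reads per group, which limits their folds more than the treated levels do, and 2 KO-labelled libraries per group leave wide intervals.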

Other observations

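For each member, the non-member genes whose levels followed it most closely over the 10 libraries were taken. For Irgm1 these included B2m (Pearson r = 0.997) and Oas1b, for Iigp1 they were I830012O16Rik (0.996), Ifit3 and Mx1, and for Igtp Sp110 (0.997), Tor3a and Cyp26c1. Irgm2 was most like Ifi35 (0.996), Parp9 and Eif2ak2, Tgtp1 like Pnp (0.994), Parp14 and Mnda, and Tgtp2 like Mnda (0.998) and B2m. Ifi47 was most like Aida (0.997) and the IRG-like neighbours Gm5431 and Gm12250. The libraries fall into treated and untreated sets and share their depth scaling, so these values, and the 114 to 141 genes at 0.95 or more for each member, mainly order genes by how cleanly those sets part. Within groups, correlations were taken over deviations from group means in the same 10 libraries. The members that moved together most were Irgm2 with Igtp (r = 0.93), Irgm1 with Tgtp2 (0.85) and Tgtp1 with Tgtp2 (0.80). The lowest value was between Iigp1 and Tgtp1 (−0.39). In a group of 2 libraries the deviations are equal and opposite, so the 10 values are not independent. Irgm2 had 12 and 106 reads in the untreated KO-labelled libraries, a wide gap that enters its value. Iigp1, Tgtp1 and Tgtp2 had at most 3 reads in each of those libraries. Irgm2 with Igtp and Tgtp1 with Tgtp2 are the pairs that share exon sequence, and the part of shared reads in these values was not tested.

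Igtp and Irgm2 took a larger part, and Iigp1, Tgtp1, Tgtp2 and Ifi47 a smaller part, of the family's summed level per kb in treated KO-labelled than in treated WT-labelled libraries. Igtp made up 41.1% and 42.0% of it in treated KO-labelled libraries and 28.2%, 31.8% and 30.6% in treated WT-labelled ones, and Irgm2 19.2% and 22.9% against 13.1%, 15.8% and 13.8%. Iigp1 made up 7.04% and 7.72% against 13.1%, 12.8% and 14.2%, and Tgtp2 2.59% and 2.71% against 6.41%, 4.33% and 4.57%. Tgtp1 made up 1.38% and 1.35% against 3.38%, 2.48% and 4.10%, and Ifi47 6.81% and 8.85% against 12.5%, 12.1% and 13.9%. These 6 shares did not overlap between the genotypes and that of Irgm1 did. Such shares were not taken for other genes, so this count is not shown to be particular to the family. For levels themselves, 20.4% of genes tested were lower without overlap in treated KO-labelled libraries. The shares were looked at after the data had been seen and no test was run on them. Shares of a sum move against each other by construction.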
